A study of Mus musculus with 6 samples.

Results

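The copying of the genome is prepared and carried out by a small set of conserved proteins, and 42 genes that encode them were described in macrophages with normal and with reduced PGAM5. The genes were chosen by their roles in DNA replication and in the G1/S transition, and each was found by its GENCODE M21 symbol. They made up 42 of the 54532 genes listed in each library and 42 of the 10540 genes that were expressed at a mean of at least 1 FPKM and tested. The authors deposited FPKM, in which a gene's fragments are divided by its exon length and by the depth of its library.

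All 6 libraries came from iBMDMs, mouse bone marrow-derived macrophages immortalized with retroviruses carrying v-raf and v-myc, and all cells had received 100 ng/ml LPS for 4 hours. The control group of 3 libraries came from cells infected with a lentivirus encoding a control shRNA, and the PGAM5 KD group of 3 libraries came from cells with an shRNA against PGAM5. How many shRNA sequences or lines were used per group is not given, so an effect of losing PGAM5 and an effect of a particular shRNA or line cannot be told apart, and without untreated cells no induction by LPS was measured. Whether replicates were separate cultures is not given, so the p-values measure only the spread between these libraries. Depth was between 18163464 and 24388917 fragments. Pgam5 itself was at 17.1, 13.0 and 13.4 FPKM in the control libraries and at 4.33, 5.75 and 4.53 FPKM in the PGAM5 KD libraries, a log2 fold change of -1.40 (95% interval -1.70 to -1.10, limma adjusted p = 0.000358).

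Before S phase, the origin recognition complex with Cdc6 and Cdt1 loads the MCM2-7 ring onto DNA, a step called licensing. At the G1/S transition, cyclin-dependent kinases activate the ring by adding Cdc45 and the GINS complex, and the replisome follows with primase, DNA polymerases, the sliding clamp PCNA and its RFC loader. Cyclin D and cyclin E kinases release E2F transcription factors from the retinoblastoma protein, and E2F switches on many of these same genes. Mature macrophages in tissue mostly divide little, whereas an immortalized line is kept dividing in culture. In bulk RNA, fewer cells in S phase and less RNA per cell cannot be told apart.

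Most of the replication genes differed little in level between control and PGAM5 KD cells. Among the 42 genes, 9 passed an adjusted p of 0.05, or 21.4%, where 31.7% of all genes tested did. Of these, 7 were higher in PGAM5 KD cells (16.8% of all genes were) and 2 were lower (14.9% of all genes were). No gene of the 42 was also beyond an absolute log2 fold change of 1, which 1.32% of all genes were. The median log2 fold change was 0.05 over the 42 genes and 0.01 over all genes tested. The median size of change, regardless of direction, was 0.09 on the log2 scale against 0.15 over all genes tested, and 23 of the 42 genes differed by less than 0.1, compared with 34.6% of all genes.

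The genes that were higher were Ccnd1, Rrm2, Gins2, Fen1, Tyms, Tk1 and Rpa2, and the genes that were lower were Gins3 and Cdt1. The 95% interval of the log2 fold change lay within 0.322 of 0 for 29 of the 42 genes, and within 1.5-fold in either direction for 40, the exceptions being Gins3 and Fen1. The 3 libraries of one group lay wholly above or below the 3 of the other for 15 genes, of which 10 were above in PGAM5 KD cells and 5 were below. Over all genes tested, 47.1% did not overlap, 24.2% with PGAM5 KD above and 22.9% with PGAM5 KD below. The number of higher calls depended on single libraries, at 3 without PGAM5 KD replicate 2, 4 without PGAM5 KD replicate 3 and 3 without control replicate 3.

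**Figure D1:**
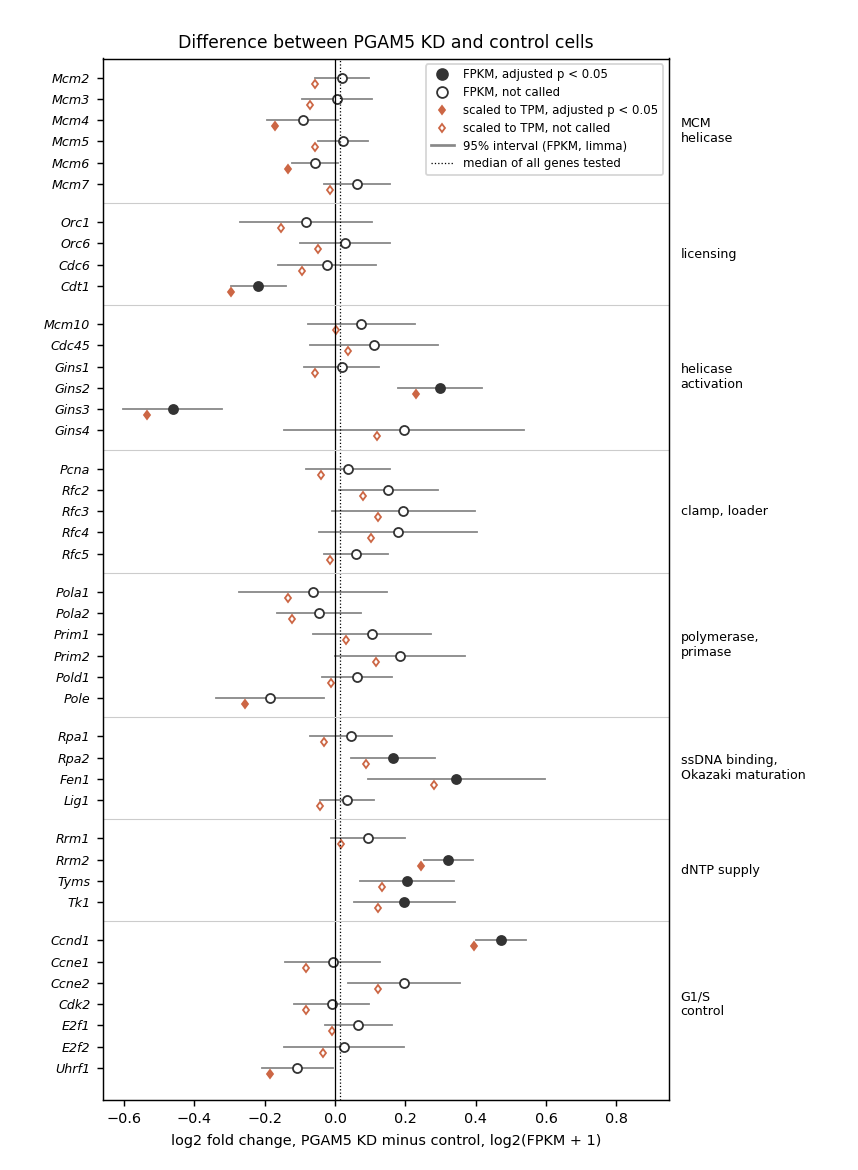
Log2 fold change of each of the 42 genes, PGAM5 KD minus control on log2(FPKM + 1), with its 95% interval from limma over 3 libraries per group; filled circles passed an adjusted p of 0.05 and diamonds give the value after scaling to TPM. Most intervals cross 0, the MCM genes sit between -0.09 and 0.06, and Ccnd1 and Gins3 lie farthest from 0 at 0.47 and -0.46.

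One feature of the libraries touched every small difference. The FPKM of all genes added up to a larger sum in each PGAM5 KD library, by 4.34% to 6.43% over the mean of the control libraries. Scaling each library to the same sum, as TPM does, moved the median of all genes by -0.07 on the log2 scale. On that scale 10.3% of all genes were higher and 21.6% lower, and of the 42 genes 3 were higher (Ccnd1, Rrm2 and Gins2) and 6 were lower (Cdt1, Gins3, Mcm4, Mcm6, Pole and Uhrf1), with a median of -0.02. The summed FPKM of the 42 genes was 1455 to 1490 in control libraries and 1534 to 1557 with PGAM5 KD, which did not overlap. Scaled as in TPM, the sum was 4779 to 4886 in control and 4730 to 4898 in PGAM5 KD libraries, which did. Which of the 2 scales holds for these cells was not tested, and 5 calls, those of Ccnd1, Rrm2, Gins2, Cdt1 and Gins3, were made on both. Centring each library on its median instead moved the median of all genes by 0.007 and left the calls of the 42 genes as they were on FPKM.

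**Figure D2:**
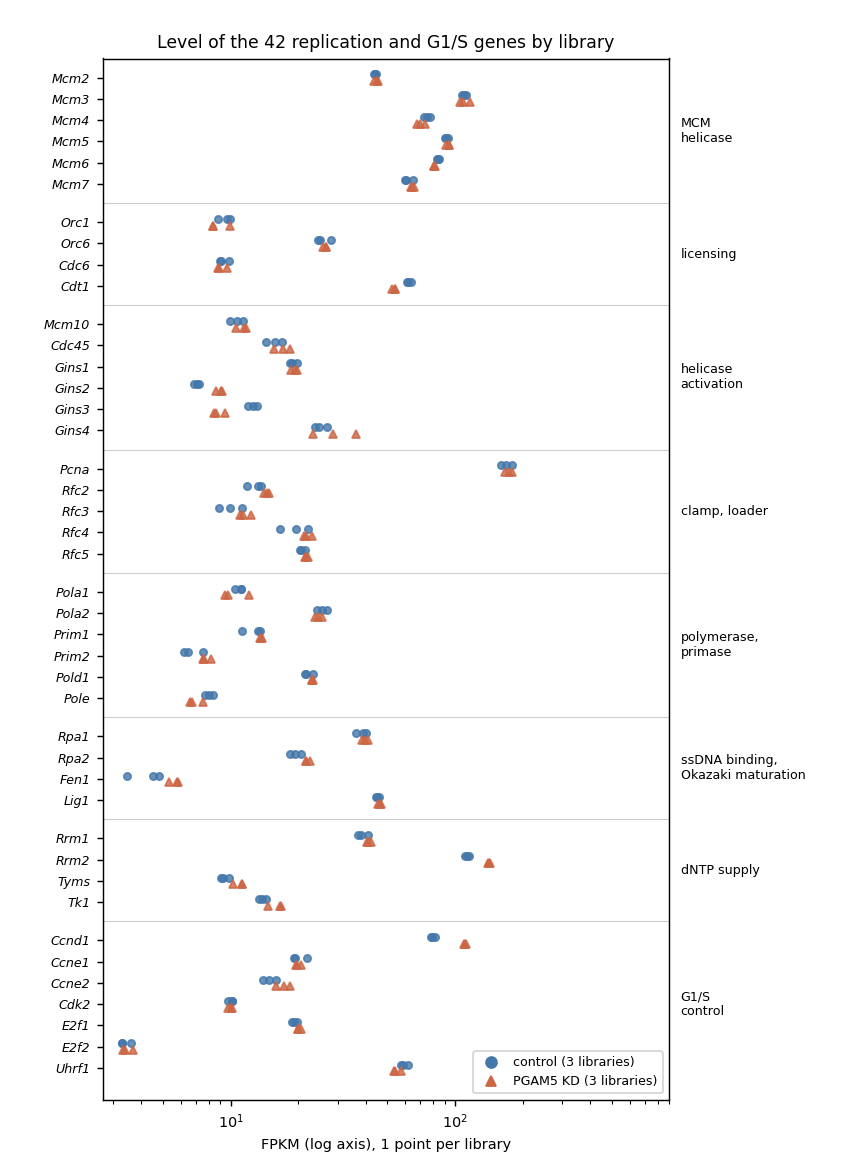
FPKM of the 42 genes in each of the 6 libraries on a log axis, grouped by role, with circles for control and triangles for PGAM5 KD. Pcna is highest at a mean of 171 FPKM and E2f2 lowest at 3.42 FPKM, and for most genes the 2 groups lie on top of each other.

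E2F factors bind promoters of many replication genes, so the promoters were read for matching letters. The RefSeq table of GRCm38.p6 held promoters for 33 of the 42 genes, from 250 bases before to 50 bases after each start, and Ccnd1, Ccne2, Gins1, Gins2, Gins4, Mcm4, Pole, Prim2 and Rfc2 had no entry there. The letters searched on both strands for E2F were TTTCCCGC, TTTCGCGC, TTTGCCGC and TTTGGCGC, which can overlap one another. At least 1 of them lay in 15 of the 33 genes (45.5%), against 2.60% of all genes in the table and 5.25% of the genes tested. Among the 5 MCM genes with an entry the number was 4. Of the 7 called genes with an entry, Gins3 and Cdt1 had a match, while Rrm2, Tyms, Tk1, Rpa2 and Fen1 did not hold these letters in the window. A CCAAT box (CCAAT) was found in 21 of the 33 genes (63.6%) against 43.0% of the genes tested, and TTTGAA, the letters of the CHR element of mitotic genes, in 5 (15.2%) against 14.5%. These shares are descriptions of the letters and not of bound factors.

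Parts of 4 promoters are shown, for the MCM gene with the most matches (Mcm6), for both called genes that were lower (Cdt1 and Gins3) and for the called gene with the smallest adjusted p that had an entry (Rrm2). Capitals mark letters that match an E2F motif. Mcm6 is the 120 bases before its start at chr1:128359706-128359825 on the minus strand, Cdt1 the 120 bases before its start at chr8:122567895-122568014 on the plus strand, and Rrm2 107 bases at chr12:24708134-24708240 on the plus strand. Gins3 is 30 bases around its match at chr8:95633507-95633536 on the plus strand, inside the first exon of the GENCODE gene and 41 bases before the RefSeq start.
Mcm6: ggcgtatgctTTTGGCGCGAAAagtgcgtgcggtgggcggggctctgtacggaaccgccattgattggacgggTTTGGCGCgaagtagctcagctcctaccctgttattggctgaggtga
Cdt1: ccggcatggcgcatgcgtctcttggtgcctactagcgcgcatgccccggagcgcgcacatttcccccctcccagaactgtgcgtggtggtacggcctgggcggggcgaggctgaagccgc
Gins3: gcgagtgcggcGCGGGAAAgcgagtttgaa
Rrm2: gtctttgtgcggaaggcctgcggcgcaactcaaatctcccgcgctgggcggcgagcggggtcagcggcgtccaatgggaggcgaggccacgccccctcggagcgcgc
Mcm6 holds 3 matches, 2 of them overlapping, and it did not pass the test. The single match of Cdt1 lies 32 bases after its start and is outside the stretch shown.

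The MCM genes encode the 6 subunits of the replicative helicase. They were among the most abundant of the 42 genes, from a mean over the 6 libraries of 44.3 FPKM for Mcm2 to 110 FPKM for Mcm3, and none passed the test. Summed over the 6 genes, their level ranged from 460 to 470 FPKM in control and from 458 to 475 FPKM with PGAM5 KD. Mcm2 was at 44.1, 43.4 and 44.6 FPKM in control and 45.4, 44.7 and 43.7 FPKM in PGAM5 KD libraries, and the groups overlapped. Mcm5 was at 90.4, 91.5 and 93.4 FPKM in control and 94.3, 91.6 and 93.7 FPKM in PGAM5 KD libraries, again with overlap. The 95% intervals of the log2 fold change ran from -0.06 to 0.10 for Mcm2, from -0.10 to 0.11 for Mcm3, from -0.05 to 0.09 for Mcm5 and from -0.03 to 0.16 for Mcm7.

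Mcm6 was the only MCM gene whose groups did not overlap. It was at 83.3, 84.2 and 84.98 FPKM in control and at 80.9, 81.3 and 80.5 FPKM in PGAM5 KD libraries, a log2 fold change of -0.06 (95% interval -0.12 to 0.01, limma adjusted p = 0.167). Mcm4 was at 77.0, 72.7 and 75.3 FPKM in control and 73.8, 69.6 and 67.6 FPKM in PGAM5 KD libraries, with a log2 fold change of -0.09 (adjusted p = 0.144). After scaling to TPM both were called lower, at -0.13 for Mcm6 (adjusted p = 0.014) and -0.17 for Mcm4 (adjusted p = 0.032), and the other MCM genes were not called.

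Among the genes that load the helicase, Cdt1 fell. Cdt1 carries the MCM ring to the origin and is destroyed once S phase begins. It was at 63.9, 62.0 and 61.1 FPKM in control and 53.9, 52.5 and 53.9 FPKM in PGAM5 KD libraries, or 62.3 ± 1.5 against 53.4 ± 0.82 (SD, n = 3 per group). All PGAM5 KD libraries were lower than all control libraries. The log2 fold change was -0.22 (95% interval -0.30 to -0.14, limma adjusted p = 0.00327), the exact two-sided permutation p was 0.1, the smallest that 3 libraries against 3 allow, and the call was made in each of the 18 alternatives. The other licensing genes were not called. Orc1, the largest subunit of the origin recognition complex, had a log2 fold change of -0.08, and Orc6, the smallest subunit, had 0.03. Orc6 shares 6.93% of its exon length with Vps35 on the opposite strand. The summed fragments of that pair had a log2 ratio of -0.14, and between 20.2% and 24.1% of them were on Orc6. Cdc6, the ATPase that works with Cdt1, had -0.02 (95% interval -0.16 to 0.12).

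Of the 6 genes that activate the helicase 1 was higher, 1 was lower and 4 were not called, or 33.3% called where 31.7% of all genes tested were. The GINS complex has 1 copy each of 4 subunits, encoded by Gins1 to Gins4. Gins3 was at 11.97, 13.1 and 12.6 FPKM in control and 8.43, 9.47 and 8.61 FPKM in PGAM5 KD libraries, without overlap. It had the largest fall of the 42 genes, a log2 fold change of -0.46 (95% interval -0.60 to -0.32, limma adjusted p = 0.00164), and the call was made in each of the 18 alternatives.

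Gins2 was at 7.11, 7.25 and 6.90 FPKM in control and 8.60, 9.16 and 9.08 FPKM in PGAM5 KD libraries, a log2 fold change of 0.30 (95% interval 0.18 to 0.42, adjusted p = 0.00507). This call was made in each alternative, but the gene shares 67.3% of its exon length with Gse1, which lies on the opposite strand and was at 4.78 FPKM in control and 3.89 FPKM in PGAM5 KD libraries. The labels mention both a directional and a non-directional protocol and do not say which was used. The summed fragments of Gins2 and Gse1 had a log2 ratio of -0.03 against 0.34 for the fragments of Gins2 alone, and how the reads were divided between the overlapping genes was not tested. Gins1 (log2 fold change 0.02), Gins4 (0.20), Cdc45 (0.11) and Mcm10 (0.07) were not called. Gins4 varied most, at 36.4, 23.3 and 28.6 FPKM in the PGAM5 KD libraries, and its interval ran from -0.15 to 0.54.

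**Figure D3:**
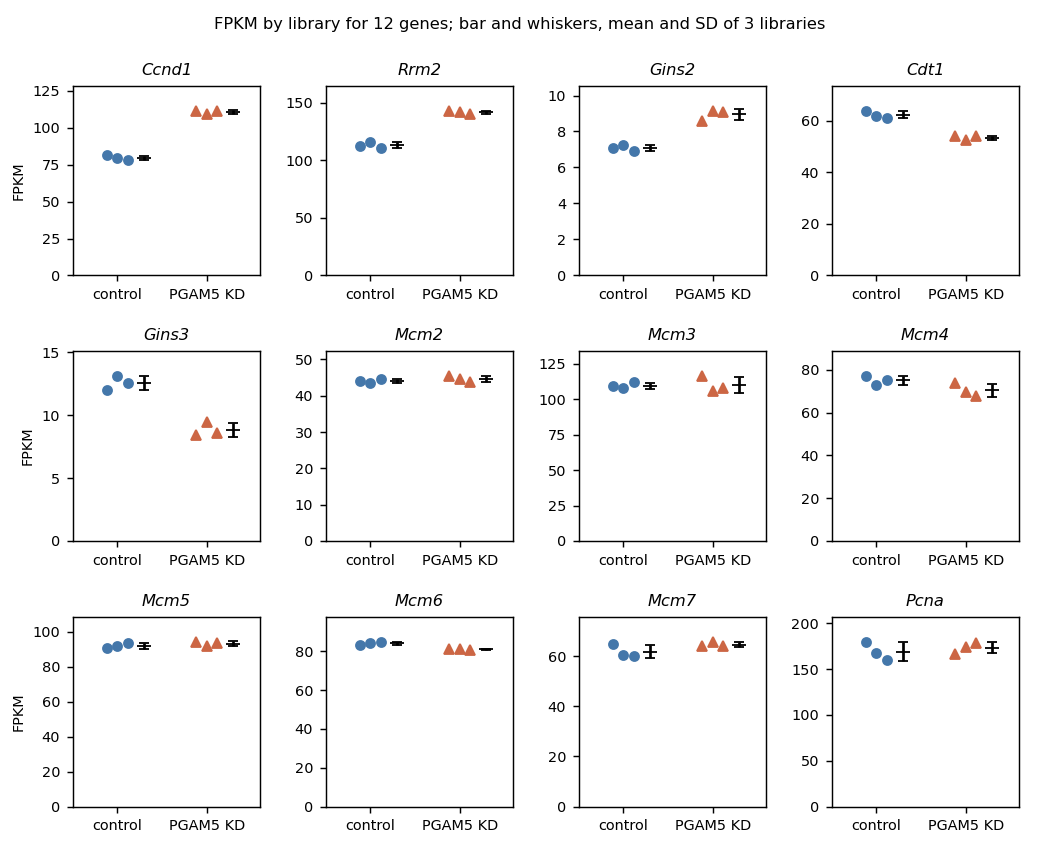
FPKM in each library for 12 genes, with axes from 0, and the mean and SD of 3 libraries beside the points. The 3 PGAM5 KD libraries lie above the control libraries for Ccnd1, Rrm2 and Gins2 and below them for Cdt1, Gins3 and Mcm6, while the groups overlap for Mcm2, Mcm3, Mcm4, Mcm5, Mcm7 and Pcna.

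The clamp and its loader were not called. PCNA encircles DNA and tethers the polymerases, and its gene was at 180, 168 and 159 FPKM in control and 167, 175 and 179 FPKM in PGAM5 KD libraries, overlapping throughout (log2 fold change 0.04, 95% interval -0.08 to 0.16). The log2 fold changes of the RFC subunits, which open the clamp and load it, were 0.15 for Rfc2, 0.19 for Rfc3, 0.18 for Rfc4 and 0.06 for Rfc5. Rfc2 was the only one whose groups did not overlap, at 13.7, 11.9 and 13.3 FPKM in control and 14.5, 14.2 and 14.8 FPKM in PGAM5 KD libraries (adjusted p = 0.0978), and it was called with voom on recovered fragments at an adjusted p of 0.038. Rfc2, Rfc4 and Rfc5 share 15.1%, 12.7% and 10.7% of their exon length with Lat2, Eif4a2 and Wsb2 on the opposite strand. The fragments summed over each pair had a log2 ratio of -0.05 for Rfc2, -0.21 for Rfc4 and -0.04 for Rfc5. At most 17.3% of the fragments of the Rfc4 pair were on Rfc4, so its sum mostly follows Eif4a2. Eif4a2 was at a mean of 37.3 FPKM in control and 30.8 FPKM in PGAM5 KD libraries. Between 44.8% and 56.5% were on Rfc2 in its pair, and between 43.5% and 48.3% on Rfc5 in its pair. How the reads of these pairs were divided was not tested.

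The polymerase and primase genes were also not called. Pola1 and Pola2 encode the catalytic and B subunits of DNA polymerase alpha, Prim1 and Prim2 the primase that lays down RNA primers, and Pold1 and Pole the catalytic subunits of the lagging- and leading-strand polymerases. Their log2 fold changes were -0.06 for Pola1, -0.05 for Pola2, 0.10 for Prim1, 0.18 for Prim2, 0.06 for Pold1 and -0.19 for Pole. Pole was at 7.71, 7.99 and 8.37 FPKM in control and 7.55, 6.70 and 6.58 FPKM in PGAM5 KD libraries, without overlap (95% interval -0.34 to -0.03, adjusted p = 0.0688). It was called lower without PGAM5 KD replicate 1 (adjusted p = 0.0327), after scaling to TPM (0.0294) and with voom (0.013), whereas with GC content and exon length corrected its log2 fold change was -0.06 (0.545). Prim2 was called higher without control replicate 2 (adjusted p = 0.0382), and Rfc3 was called higher without control replicate 1 (0.0481).

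Rpa2 and Fen1 were higher by a narrow margin. RPA binds single-stranded DNA, FEN1 removes the flaps of Okazaki fragments and LIG1 seals them. Rpa2 was at 19.5, 20.7 and 18.4 FPKM in control and 21.8, 21.6 and 22.6 FPKM in PGAM5 KD libraries (log2 fold change 0.16, adjusted p = 0.046). Fen1 was at 4.52, 4.81 and 3.45 FPKM in control and 5.80, 5.34 and 5.77 FPKM in PGAM5 KD libraries (log2 fold change 0.34, 95% interval 0.09 to 0.60, adjusted p = 0.0463). Neither gene's groups overlapped, and the scaled TPM values were not called at adjusted p = 0.23 for Rpa2 and 0.087 for Fen1. Leaving out a library raised the adjusted p of Rpa2 to between 0.0815 and 0.129 and that of Fen1 to between 0.0693 and 0.121, except without control replicate 2, when it was 0.0327 for Rpa2 and 0.0405 for Fen1. Fen1 shares 78.8% of its exon length with the antisense gene Gm10143, which had at most 27 fragments in any library, and 5.37% with Tmem258. The fragments of the 3 genes together had a log2 ratio of 0.15 against 0.42 for Fen1 alone. Between 19.7% and 28.7% of these fragments were on Fen1. With Gm10143 alone added to Fen1, the log2 ratio was 0.32. Rpa1 (0.04) and Lig1 (0.03, 95% interval -0.04 to 0.11) were not called.

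Of the 4 deoxynucleotide supply genes 3 were higher, where 16.8% of all genes tested were, and after scaling to TPM 1 of the 4 was (Rrm2). Ribonucleotide reductase, made of the RRM1 and RRM2 subunits, turns ribonucleotides into deoxyribonucleotides and limits their supply, and RRM2 is the subunit whose level follows S phase. Rrm2 rose, from 113, 116 and 111 FPKM in control to 143, 142 and 140 FPKM in PGAM5 KD libraries, or 113 ± 2.4 against 142 ± 1.5 (SD, n = 3 per group). No library overlapped the other group. The log2 fold change was 0.32 (95% interval 0.25 to 0.39, limma adjusted p = 0.000359) and the call was made in each of the 18 alternatives. Rrm2 has 3 pseudogenes with similar sequence, which took less than 1% of the fragments of the set in every library. Rrm1 was at 37.1, 38.0 and 40.8 FPKM in control and 42.3, 41.0 and 40.5 FPKM in PGAM5 KD libraries, with overlap and no call (0.09, 95% interval -0.01 to 0.20). With GC content and exon length corrected, Rrm1 was called higher at a log2 fold change of 0.20 (limma adjusted p = 0.0117).

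Tyms, which makes thymidylate, was at 9.83, 9.02 and 9.22 FPKM in control and 10.3, 11.3 and 11.2 FPKM in PGAM5 KD libraries (log2 fold change 0.20, adjusted p = 0.0329). Tk1, the thymidine kinase of the salvage pathway, was at 13.8, 13.4 and 14.4 FPKM in control and 14.7, 16.8 and 16.7 FPKM in PGAM5 KD libraries (0.20, adjusted p = 0.0468). Both were higher in every PGAM5 KD library than in every control library, and neither was called after scaling to TPM (adjusted p = 0.11 for Tyms and 0.15 for Tk1). Tyms kept its call without PGAM5 KD replicate 1 (adjusted p = 0.0266) and without control replicate 1 (0.0404), and its adjusted p was between 0.0914 and 0.0999 without any 1 of the others. Tk1 kept its call without PGAM5 KD replicate 1 (0.015), and its adjusted p was between 0.0705 and 0.135 without any 1 of the others.

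Of the genes that control the G1/S transition, Ccnd1 rose. It encodes cyclin D1, which with CDK4 and CDK6 phosphorylates the retinoblastoma protein in G1. It was at 81.3, 79.3 and 78.0 FPKM in control and 112, 109 and 111 FPKM in PGAM5 KD libraries, or 79.5 ± 1.6 against 111 ± 1.3 (SD, n = 3 per group), and the groups were well apart. The log2 fold change of 0.47 (95% interval 0.40 to 0.54, limma adjusted p = 8.7e-05) was the largest rise of the 42 genes and was called in each of the 18 alternatives. Ccnd1 shares 23.4% of its exon length with LTO1 on the opposite strand, but between 96.9% and 98.1% of the fragments of the pair were on Ccnd1.

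The other G1/S genes were not called. Cyclin E activates CDK2 at the transition, and its gene Ccne1 was at 21.8, 19.1 and 19.5 FPKM in control and 20.6, 19.8 and 19.5 FPKM in PGAM5 KD libraries (log2 fold change -0.01, 95% interval -0.14 to 0.13). Ccne2 was at 14.0, 15.9 and 14.8 FPKM in control and 17.4, 18.4 and 16.0 FPKM in PGAM5 KD libraries without overlap (0.20, adjusted p = 0.0647). It shares 17.4% of its exon length with Ints8 on the opposite strand. The summed fragments of the pair had a log2 ratio of 0.10 against 0.21 for Ccne2 alone. Between 42.7% and 48.6% of them were on Ccne2. Ccne2 was called higher without PGAM5 KD replicate 3 (adjusted p = 0.0478), with voom (0.0435) and among protein-coding genes alone (0.0411). The log2 fold changes were -0.01 for Cdk2, 0.07 for E2f1 and 0.03 for E2f2, of which E2f1 and E2f2 encode activating E2F factors. E2f1 was at 19.1, 18.7 and 19.8 FPKM in control and 19.9, 19.97 and 20.6 FPKM in PGAM5 KD libraries, which did not overlap (95% interval -0.03 to 0.16, adjusted p = 0.254). Uhrf1, which brings the DNA methyltransferase DNMT1 to newly copied DNA, was at 61.8, 58.6 and 57.4 FPKM in control and 54.2, 53.4 and 57.2 FPKM in PGAM5 KD libraries, without overlap (-0.11, 95% interval -0.21 to -0.01, adjusted p = 0.0987), and it was called lower after scaling to TPM (adjusted p = 0.017).

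The remaining genes of the same processes were read from 5 lists of related factors. The share called was 25% for other replication factors, 43.8% for other nucleotide synthesis, 50% for other G1/S regulators, 20% for replication-coupled chromatin and repair and 30.8% for G2/M and mitosis, beside the 31.7% of all genes tested. Of 36 other replication factors tested, 3 were higher and 6 lower, with a median log2 fold change of -0.02, and after scaling to TPM 3 were higher and 12 lower, with a median of -0.09. The kinase gene Cdc7, which fires licensed origins, was at 6.33, 7.45 and 7.69 FPKM in control and 4.75, 5.15 and 5.33 FPKM in PGAM5 KD libraries (log2 fold change -0.42, adjusted p = 0.00872). Ticrr (-0.37), Recql4 (-0.33) and Atad5 (-0.33) were lower as well, of which Ticrr helps to load Cdc45. The largest rise on this list was that of Rnaseh2c (0.55), a subunit of RNase H2, which shares 24.8% of its exon length with Kat5. For the fragments of the pair the log2 ratio was 0.25 against 0.58 for Rnaseh2c alone. Between 31.4% and 44.4% of them were on Rnaseh2c. The other two higher genes overlap no other gene and were also called after scaling to TPM, Tipin (0.32), whose product protects the fork, and Pclaf (0.18), whose product binds PCNA. Of 16 other nucleotide synthesis genes, 6 were higher and 1 lower, and after scaling to TPM 1 was higher and 3 were lower. Samhd1, which degrades deoxynucleotides, had the largest rise, from 16.6, 15.5 and 15.2 FPKM in control to 19.8, 19.4 and 18.8 FPKM in PGAM5 KD libraries (0.28, adjusted p = 0.00542).

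Among the 5 related lists, that of other G1/S regulators held the largest single changes. Of 26 tested genes out of 29, 7 were higher and 6 lower, and after scaling to TPM 4 were higher and 8 lower. In the unscaled fit 2 were beyond an absolute log2 fold change of 1, and after scaling to TPM both were just under it (0.99 for Cdkn1a and 0.97 for Ccnd2), while Cdkn1c, Cdkn2a and Cdkn2b were listed at 0 in all libraries. Cdkn1a, which encodes p21, an inhibitor of cyclin-dependent kinases that also binds PCNA, was at 33.9, 32.8 and 34.6 FPKM in control and 71.4, 71.8 and 71.7 FPKM in PGAM5 KD libraries. Its log2 fold change of 1.06 (95% interval 0.98 to 1.14, adjusted p = 7.42e-06) was called in each of the 18 alternatives. Ccnd2, which encodes cyclin D2, was at 0.532, 0.758 and 0.512 FPKM in control and 2.20, 2.35 and 2.15 FPKM in PGAM5 KD libraries, or 3.71 times the control mean as a plain ratio of FPKM, a low level at which log2(FPKM + 1) understates the change. Cdkn2d, an inhibitor of CDK4 and CDK6, had 0.63 and Ccnd3, which encodes cyclin D3, had 0.51. Ccnd3 shares 4.11% of its exon length with Bysl, and the fragments of that pair had a log2 ratio of 0.24. Between 33.8% and 46.8% of them were on Ccnd3. E2f8, an E2F factor that represses replication genes, was lower (-0.36, adjusted p = 0.00133). The number of lower calls on this list was 3 without PGAM5 KD replicate 3.

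Of 20 genes of replication-coupled chromatin and repair, Chaf1b was higher and Brca1, Brca2 and Dnmt1 were lower, and after scaling to TPM 0 were higher and 6 lower. Brca1, which protects stalled forks and repairs breaks, was at 9.36, 8.48 and 8.63 FPKM in control and 6.89, 5.99 and 5.70 FPKM in PGAM5 KD libraries (log2 fold change -0.45, adjusted p = 0.00512). The call of Brca1 held without any 1 library, whereas that of Brca2 held in 1 of 6 such fits, that of Dnmt1 in 1 and that of Chaf1b in 2. Of 26 G2/M and mitosis genes, 2 were higher and 6 lower, and after scaling to TPM 0 were higher and 11 lower. Mki67, the gene of the proliferation marker Ki-67, was at 59.6, 61.4 and 63.6 FPKM in control and 47.6, 42.4 and 40.9 FPKM in PGAM5 KD libraries (-0.49, adjusted p = 0.00135). The calls of Mki67 and Cdc25c were made in each of the 18 alternatives. Cdc25c, the phosphatase that activates CDK1, was lower by a log2 value of -0.56 (adjusted p = 0.00183), and Cenpf, a kinetochore gene, had -0.35. Without PGAM5 KD replicate 2, PGAM5 KD replicate 3 or control replicate 2, 1 of the chromatin and repair genes was lower, and without PGAM5 KD replicate 1, PGAM5 KD replicate 2, control replicate 2 or control replicate 3, 0 were higher. Without any 1 library the G2/M genes had 0 or 1 higher call, with 0 without PGAM5 KD replicate 3 and without control replicate 1. The differences between these lists and the 42 genes were not tested.

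**Figure D4:**
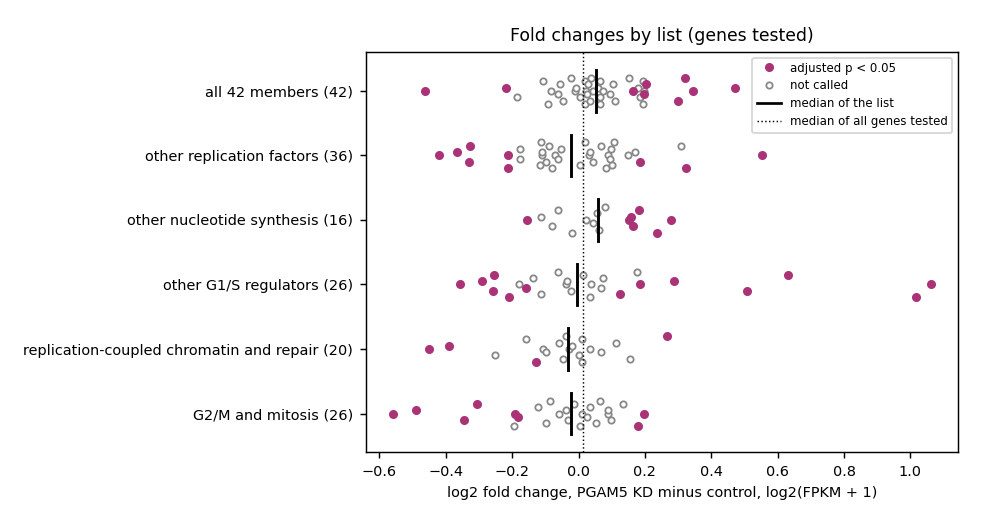
Log2 fold change of each tested gene in the 42 genes and in 5 related lists, with called genes filled, list medians as bars and the median of all genes tested as a dotted line. The medians lie between -0.03 and 0.06, and the highest value is that of Cdkn1a at 1.06 and the lowest that of Cdc25c at -0.56.

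The identity of the cells was read from marker genes. Of 10 macrophage markers 9 were detected, Csf1r, Cd68, Lyz2, Spi1 and Cd14 all above 100 FPKM in both groups, and Mertk was listed at 0. Of these 9 markers 4 were higher and 3 lower with PGAM5 KD, or 77.8% called where 31.7% of all genes tested were. Their median size of change was 0.56 on the log2 scale against 0.15 over all genes tested, and it reached 1.51 for Fcgr1, an Fc receptor gene that was higher. Summed over the list they were at 2987 to 3073 FPKM in control and 2700 to 2729 FPKM in PGAM5 KD libraries. Of 10 neutrophil markers 1 had a mean of at least 1 FPKM (Csf3r, 1.57 FPKM), and the summed level was 1.47 to 2.23 FPKM in control and 1.61 to 1.84 FPKM in PGAM5 KD libraries. Of 10 fibroblast markers 0 did, and the summed level of the fibroblast markers was at most 0.0263 FPKM in control and at most 0.0579 FPKM in PGAM5 KD libraries. Of 10 lymphocyte markers Ighm stood out at a mean of 42.1 FPKM, it was not called on FPKM but was lower after scaling to TPM (-0.16, adjusted p = 0.0436), and Cd3e was listed at 0. The part of these marker differences in the replication gene values was not tested. Of the 42 genes, 16 share exon sequence with another gene and 26 do not, and Cdt1, Gins3 and Rrm2 are among the 26.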

How the data were processed

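The data were RNA-seq libraries of poly(A) RNA, 3 from control and 3 from PGAM5 KD iBMDMs after LPS, grouped by their labels. The authors deposited FPKM, 1 table per library with all 54532 genes, and the submitters' processing notes name HISAT2 2.0.5, featureCounts 1.5.0-p3 and mm10. The annotation release and the strand setting are not given in the sources used here. FPKM carries no scaling between libraries beyond depth, so a library whose fragments fall on shorter genes has a larger sum. GENCODE M21 (GRCm38) held 54495 of the gene identifiers and 37 were not matched. FPKM times exon length fell on whole multiples of 1 fragment, within 0.01, for 96.8% to 97.1% of values under 1000 fragments, which gave the depths. Samples of a group differed by more than sampling noise (chi-square per degree of freedom 4.82 to 8.16).

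The test was limma 3.58.1 in R 4.3.3 (lmFit, eBayes with a trend, two-sided) on log2(FPKM + 1) for 10540 genes (mean FPKM 1 or more), with Benjamini-Hochberg adjustment over all of them and a call at 0.05. A fold change on this scale understates that of low genes. An absolute log2 fold change above 1 was a second criterion, after the thresholds of the study's methods. Count models were not used because the unit is FPKM; voom on the recovered fragments was an alternative. The 18 alternatives were a smaller pseudocount (0.1), testing without the filter, a filter at a mean FPKM of 5, scaling to TPM, quantile normalization, centring on the library median, no trend, a replicate block, GC content and exon length correction without and with that block, protein-coding genes only, voom, and leaving out each of the 6 libraries. The fit was tested on simulated data.

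The 42 genes and the other lists were chosen with earlier results of these data known. All 42 genes are accounted for, with values by library for those called and for those whose groups did not overlap, and for some of the rest. Of each other list at most 5 called genes with the largest absolute log2 fold change were named, together with overlapping genes, detected markers and, in small counts, each called gene. Promoters came from RefSeq (GRCm38.p6). Overlaps were taken from GENCODE exons, and sequence copies were found by blastn 2.17.0 (coding sequence, identity 85% or more across 200 bases or more). Python 3.11.15 with pandas 2.3.3 and matplotlib 3.10.9 made the tables and drew the figures.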

Additional observations from a re-analysis of the deposited data

How the results depend on the processing

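The calls of Ccnd1, Rrm2, Gins2, Gins3 and Cdt1 were made in each of the 18 alternatives with the same direction, and no gene of the 42 that was called changed direction in any of them. The calls of Rpa2, Fen1, Tyms and Tk1 were lost in several. The number of the 42 genes called higher, 7 in the reported fit, was 3 with no filter on low values, 4 with no mean-variance trend, 3 with a replicate block, 3 after scaling to TPM, between 3 and 6 without any 1 library, 8 among protein-coding genes only (Ccne2 added) and 9 with voom (Rfc2 and Ccne2 added). The number called lower, 2 in the reported fit, was 5 with quantile normalization (Mcm4, Mcm6 and Uhrf1 added), 6 after scaling to TPM, and 2 or 3 without any 1 library. The median over the 42 genes was 0.05 in the reported fit and -0.024 after scaling to TPM. With GC content and exon length corrected, Mcm4, Rfc2 and Rrm1 gained a call and Rpa2 and Fen1 lost theirs. Over all genes, 1082 were higher after scaling to TPM and 1046 were lower with GC content and exon length correction and the replicate block, against 1771 and 1575.

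Libraries of the same replicate number did not vary together, and whether they were prepared together is not given. The correlation of deviations from the group means between libraries of the same number was -0.02, 0.02 and -0.05, and the replicate block lost the calls of Rpa2, Fen1, Tyms and Tk1.

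On the related lists, other replication factors had 12 lower calls after scaling to TPM and 3 with GC content and exon length correction and the replicate block. Other nucleotide synthesis had 1 higher and 3 lower calls after scaling to TPM, 2 higher calls with quantile normalization, and 2 higher and 0 lower calls with GC content and exon length correction, both without and with the replicate block. Other G1/S regulators had 4 higher and 8 lower calls after scaling to TPM, 3 lower calls with no filter on low values, and 3 or 4 lower calls without any 1 library. Replication-coupled chromatin and repair had 0 higher calls with no filter, with the replicate block and after scaling to TPM, 2 with voom and with GC content and exon length correction, and 0 or 1 without any 1 library. Its lower calls numbered 6 after scaling to TPM, 5 with voom, 1 with no filter, with the replicate block and with GC content and exon length correction without or with that block, and 1 or 2 without any 1 library. G2/M and mitosis had 0 higher calls with the replicate block, quantile normalization, scaling to TPM and GC content and exon length correction without or with the block, 1 with no filter and with no trend, and 0 or 1 without any 1 library. Its lower calls numbered 11 after scaling to TPM and 2 with GC content and exon length correction and the replicate block. The cause of these differences was not tested. With 3 libraries per group, a gene that was not called may still differ within its interval.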
